A study of Mus musculus with 9 samples.

Results

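Chromatin accessibility of mouse cardiomyocyte nuclei was compared between postnatal day 1 (P1) and postnatal day 14 (P14), with 3 libraries at each age. These 6 of the 9 libraries of the series were taken by their age label, and every region deposited for them was used: 33844 regions around transcription start sites (TSS) and 25915 peak regions. The mice were of the outbred CD1 (ICR) stock, and no genotype or treatment is labelled for any group. One growth protocol is attached to every library; it speaks of surgery some days before collection without saying whether these hearts had any, and it describes stirred digestion for neonatal and perfusion for adult hearts without placing P14. Each P1 library pooled 12 hearts and each P14 library 6 to 7. Nuclei were sorted on Pcm1, a centriolar satellite protein found at the nuclear envelope of cardiomyocytes. The remaining 3 libraries, at postnatal day 56 (P56), from 6 to 7 hearts each, entered the fits and are given beside the results where they help.

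In the assay, ATAC-seq, a transposase cuts and tags DNA that is not covered by nucleosomes or other proteins, so reads pile up at active promoters and enhancers. In the first 2 weeks after birth mouse cardiomyocytes stop dividing, become binucleate, change from glycolysis towards fatty acid oxidation and exchange fetal for adult contractile proteins. Over the same weeks the mouse heart loses the newborn's capacity to replace lost muscle. The comparison of P14 with P1 asks which promoters and peaks change in accessibility over that interval.

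P14 was the shallowest age. TSS counts totalled 1414979 to 2167369 per library at P1 and 481217 to 893032 at P14, and peak counts 889605 to 1217798 and 316311 to 559445. The P1 mean TSS total was 2.90-fold that of P14 (exact two-sided permutation p = 0.1, the smallest that 3 against 3 libraries can give). The 10% of start site regions with the most counts took 31.9%, 33.0% and 32.0% of a library at P1 and 34%, 35.3% and 34.4% at P14, with no overlap (exact permutation p = 0.1). Levels per region, ranked within each library, correlated between start site profiles at 0.805 to 0.864 among P1 libraries, 0.787 to 0.827 among P14 libraries and 0.785 to 0.856 between the ages, and the 3 ranges overlapped.

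One library stood apart. Summed over 13 cardiomyocyte marker genes, among them Myh6, Tnnt2, Ttn and Nkx2-5, TSS levels in CPM, the counts scaled to a common library size by edgeR's TMM method, were 596, 996 and 1288 CPM in P1 replicates 1, 2 and 3 and 916, 1139 and 1045 CPM in P14 replicates 1, 2 and 3. P1 replicate 1 was the lowest of the 6, and the other P1 libraries lay within or above the P14 range. At P56 the sums were 1068, 2644 and 1411 CPM, with replicate 2 the highest of all 9 libraries. No tested cardiomyocyte marker was at 0 in any of the 6 libraries. Neither was any tested marker of endothelial cells, fibroblasts, smooth muscle, leukocytes, epicardium, glia and neurons, or erythroid cells. Every deposited region had a mean of at least 10 counts, so the lack of zeros cannot show whether cell types were separated. The calls and list medians that moved most without P1 replicate 1 are given both ways below. In nuclei from pooled hearts, fewer nuclei of a type and less open chromatin per nucleus cannot be told apart.

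Few regions differed between the ages. At the TSS, 4 of 33747 tested regions rose from P1 to P14 (0.0119% of regions) and 0 fell (0.0%) in edgeR's quasi-likelihood test at a Benjamini-Hochberg adjusted p below 0.05. Without adjustment, 1661 regions (4.92%) had a p below that level with a higher and 1239 (3.67%) with a lower value at P14. The 3 P14 libraries all lay above the 3 P1 libraries in 3043 regions (9.02%) and all below them in 2655 (7.87%). The 4 regions were those of Gaa, an enzyme gene, and of 3 predicted genes, Gm10800, Gm10801 and Gm26917, which the naming rule passes over and which are named here after their values were seen. DESeq2's Wald test called 1 region and limma-voom 1, in both cases among the same 4. Without P14 replicate 2 the count was 0, without P14 replicate 3 it was 2 and without P56 replicate 2 it was 9. The p-values measure the spread between libraries described as biological triplicates, each a pool of hearts.

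**Figure D1:**
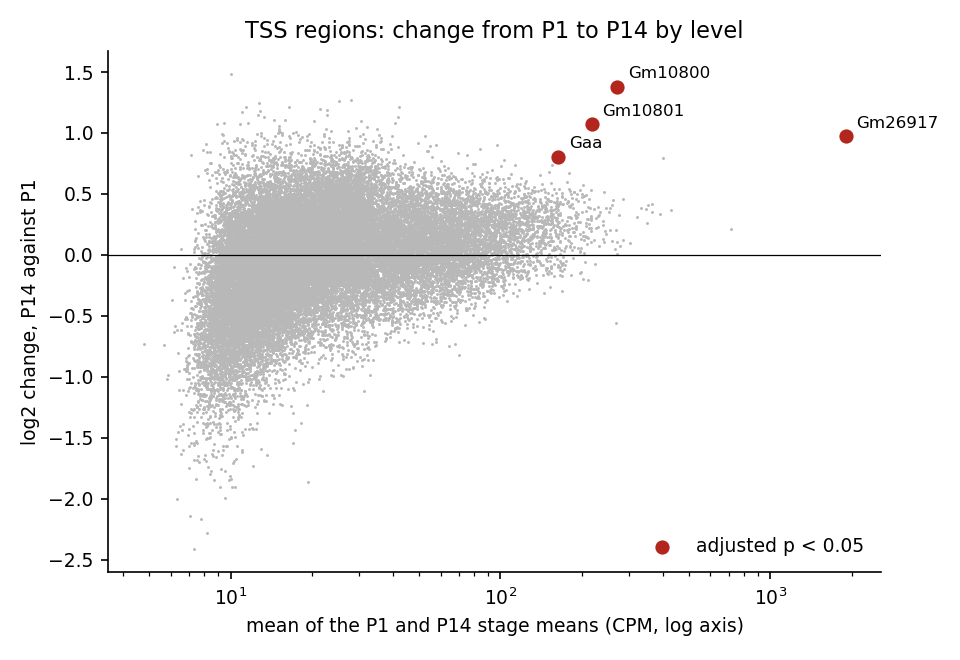
Log2 change from P1 to P14 of each tested TSS region (vertical axis) against the mean of the P1 and P14 mean levels in CPM (log axis). The 4 regions with an adjusted p below 0.05 are marked in red, at changes of 0.81 (Gaa) to 1.38 (Gm10800).

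The precision sets what could be seen. The 95% interval of a region's log2 change had a median half-width of 0.66 at the TSS, a factor of 1.58, and 0.74 at peaks, a factor of 1.67. The interval lay wholly within a 2-fold change in either direction for 21147 of 33747 TSS regions (62.7%). For the remaining start sites a 2-fold difference was not excluded at this depth.

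Gaa encodes acid alpha-glucosidase, the lysosomal enzyme that breaks down glycogen and whose loss causes Pompe disease, in which heart muscle stores glycogen. Its TSS region (ENSMUSG00000025579, gene at GRCm38 chromosome 11, 119267963 to 119285458) stood at 118, 134 and 104 CPM in P1 replicates 1 to 3 and at 184, 240.4 and 201 CPM in P14 replicates 1 to 3. All 3 P14 libraries were higher than all 3 P1 libraries. The region rose 1.75-fold, a log2 change of 0.81 ± 0.15 (SE, edgeR adjusted p = 0.0474), and stood at 200.0 ± 4.05 CPM (SD, n = 3) at P56. The call sat close to the threshold: of the fits without a replicate block, it held without a filter on low counts, with the 6 P1 and P14 libraries alone and without P56 replicate 1 or 2, and it was lost in the others, such as DESeq2's size factors and the removal of any 1 P1 or P14 library. The log2 change itself stayed between 0.50 and 0.90 in all of them. The genes Ccdc40 and Eif4a3, 2715 and 2905 bases away, had log2 changes of 0.30 and 0.30 (edgeR adjusted p = 0.612 and 0.671).

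The RefSeq promoter of Gaa (GRCm38.p6, chr11:119267713-119268012, plus strand) is shown because Gaa was the only named gene called. The window runs from 250 bases before to 50 bases after the start, and capitals mark CACGTG, the E-box core that MiT family factors of lysosomal genes and clock factors bind, which reads the same on both strands. It was found once, at position 111 counted from 1 at the 5′ end, and 7.15% of 32851 RefSeq promoters of this length hold it. A match is a description of the letters and not evidence of a bound factor, and the width of the counted TSS region is not given in the sources used here.
Gaa: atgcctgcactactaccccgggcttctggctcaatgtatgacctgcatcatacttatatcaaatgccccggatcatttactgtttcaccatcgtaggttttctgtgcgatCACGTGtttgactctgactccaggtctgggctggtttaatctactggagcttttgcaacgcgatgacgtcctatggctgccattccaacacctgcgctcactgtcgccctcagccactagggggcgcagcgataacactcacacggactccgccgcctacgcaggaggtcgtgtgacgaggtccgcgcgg

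The 3 predicted genes are known from repeats: Gm10800 and Gm10801 from satellite-like sequence on chromosome 2, and Gm26917, like its neighbour Gm42418, from sequence on chromosome 17 that resembles ribosomal RNA. Gm10800 stood at 123, 181 and 146 CPM at P1 and 269.9, 481 and 426 CPM at P14, without overlap, a rise of 1.38 ± 0.18 (log2, SE; edgeR adjusted p = 0.000395). Gm10801 rose by 1.07 ± 0.18 (edgeR adjusted p = 0.00997), from a P1 mean of 139 to a P14 mean of 296 CPM, and was not called without P1 replicate 1, P14 replicate 2 or P14 replicate 3. Gm26917 rose by 0.97 ± 0.14 (edgeR adjusted p = 0.000773), from 977, 1521 and 1356 CPM to 1970, 3031 and 2567 CPM. Gm42418 (chromosome 17, 39846354 to 39848202) had a log2 change of 0.79 and did not pass (edgeR adjusted p = 0.0787), and PK27343, the peak that covers it, had one of 0.77 (edgeR adjusted p = 0.456).

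At these repeats the deposited counts hardly followed library depth. Gm10800 had 283, 264 and 278 reads in the P1 libraries and 243, 228 and 208 in the P14 libraries. The counts spanned 1.36-fold over all 9 libraries, while the library totals spanned 4.5-fold. A depth slope was computed for each region as the slope of log2 count on log2 library total within ages over the 9 libraries, where 1 means that counts grow in proportion to depth. It was 0.0683 for Gm10800, 0.153 for Gm10801 and 0.25 for Gm26917, against a median of 0.98 over all TSS regions with a 5th to 95th percentile of 0.363 to 1.68. For Gaa it was 0.78. With the log2 library total as a covariate, an alternative added after the data were seen, 0 TSS regions were called and the log2 change of Gm10800 became -0.08 (edgeR adjusted p = 1). A count that does not follow depth gives a higher CPM in a shallower library, and age and depth cannot be told apart here, since all 3 P14 libraries had lower totals than all 3 P1 libraries.

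**Figure D2:**
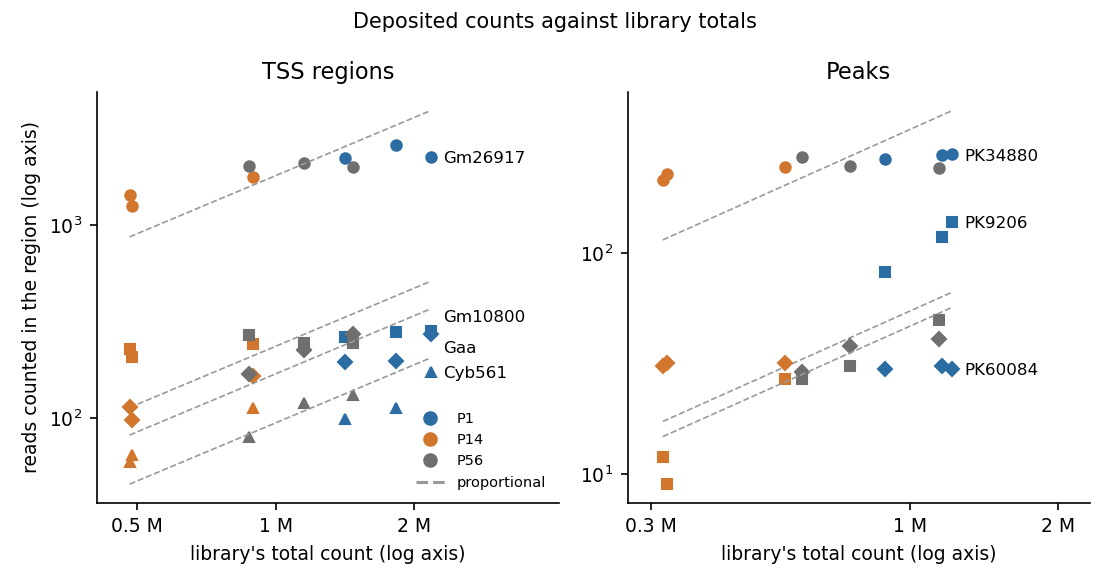
Reads counted in selected TSS regions (left) and peaks (right) against the library's total count, both on log axes, with 1 point per library coloured by age and a dashed line of proportional growth for each region. Counts of Gm10800 and of the peaks PK34880 and PK60084 stay nearly level while totals span 4.5-fold (TSS) and 3.85-fold (peaks); those of Gaa and Cyb561 climb with the total.

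Among peaks, 2 of 25885 rose (0.00773%) and 0 fell (0.0%) in edgeR's test. Without adjustment 847 (3.27%) were higher and 716 (2.77%) lower at P14, and in 1914 peaks (7.39%) the P14 libraries all lay above and in 1461 (5.64%) all below those of P1. DESeq2's Wald test called 2 peaks, the same ones, and limma-voom 2, of which 1 rose and 1 fell and 1 was among the same ones. The called peaks are named as in the deposited table. PK34880 (chromosome 2, 98665793 to 98667822) lies between genes of the RefSeq table and held 280, 267 and 281 reads at P1 and 246, 228 and 215 at P14, a log2 change of 1.26 ± 0.23 (edgeR adjusted p = 0.0244). The TSS region of Gm10800 held nearly the same counts, 283, 264 and 278 at P1 and 243, 228 and 208 at P14. The reads are likely shared in large part, so PK34880 is not separate support. PK60084 (chromosome 8, 83756290 to 83757487), 15.0 kb from Adgre5, held 31, 30 and 30 reads at P1 and 32, 32 and 31 at P14, a log2 change of 1.57 ± 0.31 (edgeR adjusted p = 0.0397). Raw counts differed far less between the ages than library totals did, with depth slopes of 0.0357 and 0.234 against a median of 0.925 over all peaks. No peak was called with the library total as a covariate, with library size alone as scaling, or with the TSS table's scaling factors.

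Of the 20 TSS regions with the smallest p, 6 (30.0%) had a depth slope under 0.5, compared with 9.35% of all TSS regions. Among peaks it was 7 of 20 (35%), compared with 16.0% of all. Start sites among the 20 with slopes nearer to 1 were Cyb561 (1.04), Espn (0.98), Zfp523 (1.16) and Hpx (1.01).

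The largest differences at named genes did not pass the test, and their values follow as a description. Genes and peaks picked over all regions by largest change or smallest p were taken only where the ages did not overlap. In them the lack of overlap was set by this rule. Cyb561, which encodes a transmembrane cytochrome that carries electrons from ascorbate, came closest. Its TSS stood at 75.6, 67.8 and 59.3 CPM at P1 and at 126, 124 and 131 CPM at P14. The ages did not overlap, and the log2 difference was 0.91 ± 0.17 (edgeR adjusted p = 0.0526). It was called in the fit of the 6 P1 and P14 libraries and without P56 replicate 1 or 2. At P56 it stood at 99.1 ± 5.82 CPM.

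Slc35c2, which encodes a Golgi transporter involved in fucosylation of Notch receptors, stood at 123, 130 and 97.7 CPM at P1 and 182, 205 and 197 CPM at P14. Its log2 difference was 0.73 ± 0.15 (edgeR adjusted p = 0.162). Elmo2, 143 bases away, had one of 0.40 (edgeR adjusted p = 0.513). Kif26a, a kinesin-related gene, stood at 61.3, 55.5 and 59.9 CPM at P1 and 92.2, 137 and 98.3 CPM at P14, a log2 difference of 0.87 ± 0.19 (edgeR adjusted p = 0.313). Both were called without P56 replicate 2. In neither gene did the ages overlap, and both had a lower mean at P56, with log2 differences from P14 to P56 of -0.30 and -0.41. Nptx2, a neuronal pentraxin gene, stood at 12.6, 17.1 and 15.2 CPM at P1 and 34.4, 25.3 and 47.1 CPM at P14. Its log2 difference was 1.26 ± 0.29 (edgeR adjusted p = 0.313). PK49562 (144545558 to 144546884), which spans the edge of the gene at 144545887, differed by 1.45 ± 0.35 (edgeR adjusted p = 0.2004). At P14 the TSS region held 31, 12 and 23 reads and the peak 31, 12 and 22. The reads are likely shared in large part, so the peak is not separate support.

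Adam11, Espn, Zfp523, Lrp1 and Fibcd1 had log2 differences of 0.67, 0.60, 0.65, 0.57 and 1.21, each without overlap between the ages and each with an edgeR adjusted p of 0.313. Adam11 was called without P56 replicate 2. Espn encodes the actin bundler espin, Lrp1 a large endocytic receptor and Fibcd1 an acetyl-group-binding membrane receptor. Fibcd1 had a depth slope of 0.22, so its counts hardly followed depth. Def6, 1570 bases from Zfp523, had a log2 difference of 0.73 (edgeR adjusted p = 0.513).

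**Figure D3:**
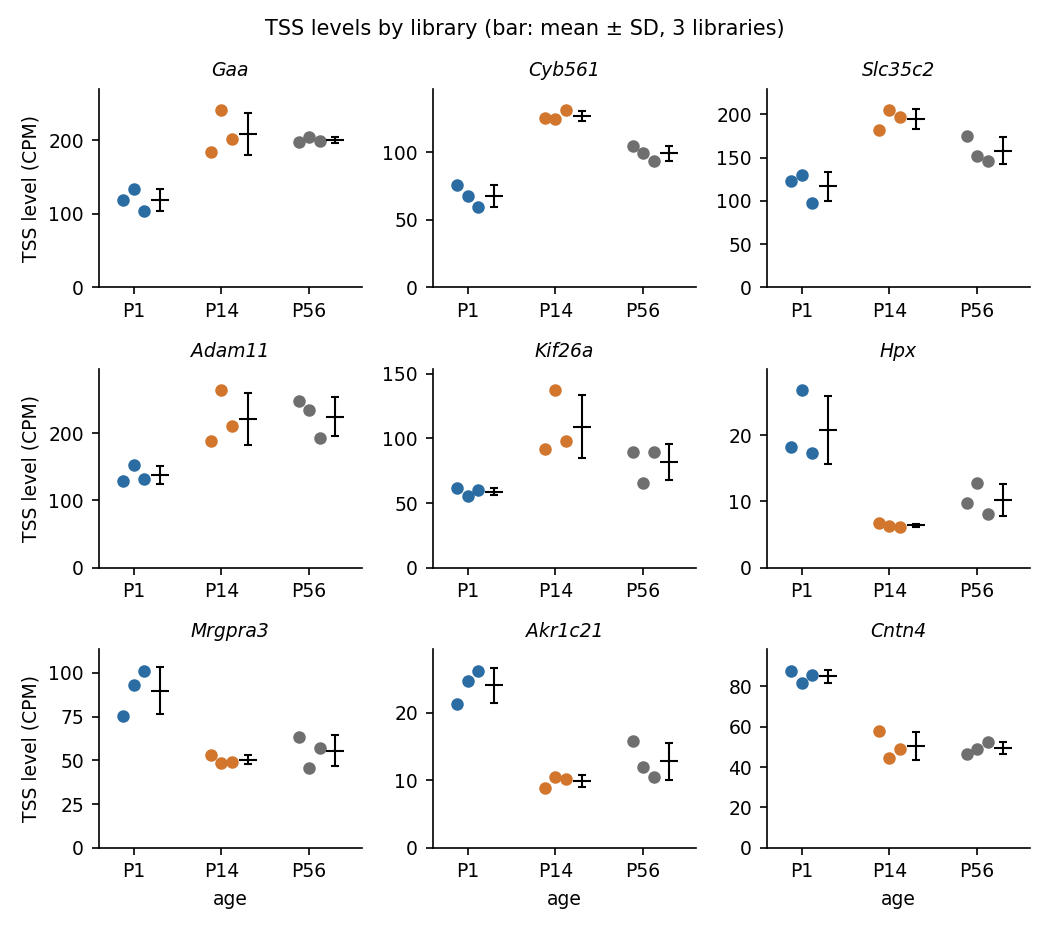
TSS levels in CPM (linear axes from 0) of 9 named genes by age, with 1 point per library and a bar for the mean ± SD of 3 libraries. The 5 genes with higher values at P14 (Gaa, Cyb561, Slc35c2, Adam11, Kif26a) and the 4 with lower values (Hpx, Mrgpra3, Akr1c21, Cntn4) do not overlap between P1 and P14, which was a condition of naming them.

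None of the genes with lower values at P14 passed the test. Hpx, the gene of the liver plasma protein hemopexin, stood at 18.3, 26.7 and 17.3 CPM at P1 and at 6.66, 6.33 and 6.15 CPM at P14, which are 6, 3 and 3 reads. The log2 difference was -1.65 ± 0.44 (edgeR adjusted p = 0.313). Mrgpra3, an itch receptor gene of sensory neurons, stood at 75.2, 93.2 and 101 CPM at P1 and 53.3, 48.5 and 49.2 CPM at P14, a log2 difference of -0.82 (edgeR adjusted p = 0.388). Akr1c21, a steroid-metabolising aldo-keto reductase gene, differed by -1.30 and Cntn4, a neuronal contactin gene, by -0.73. Krtap3-1, a hair keratin-associated gene, differed by -1.29 (edgeR adjusted p = 0.446), and Tmprss11g, Ccr2, Clec4a2 and Asb7 by -1.16, -1.12, -0.99 and -1.24 (edgeR adjusted p = 0.448 for each). The TSS of Asb7 held 11, 5 and 3 reads at P14, and its promoter peak PK55884 differed by only -0.21 (edgeR adjusted p = 0.978). Ccr2 and Clec4a2 are receptors of myeloid cells.

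Acaca encodes an acetyl-CoA carboxylase, an enzyme that makes malonyl-CoA. Its TSS stood at 69.5, 86.3 and 87.2 CPM at P1, at 46.7, 54.8 and 43.0 CPM at P14 and at 80.2, 115 and 75.7 CPM at P56. P14 lay below both other ages without overlap. The log2 difference from P1 to P14 was -0.75 ± 0.22 (edgeR adjusted p = 0.448) and that from P14 to P56 was 0.92; both use the same P14 libraries.

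RefSeq promoters of 2 genes with higher and 2 with lower values at P14 are shown as examples, chosen after their values were seen. They are the first listed start sites and need not be the regions counted. Capitals mark motif matches: GGGCGG (a GC box), CCGGAAG (an ETS core) and CCAAT on either strand, and CACGTG. Slc35c2 (chr2:165287789-165288088, minus strand, 54.0% GC, 14 CpG) holds 1 GC box and 2 ETS cores. Kif26a (chr12:112145958-112146257, plus strand, 69.7% GC, 26 CpG) holds 6 GC boxes. Hpx (chr7:105600067-105600366, minus strand, 47.3% GC, 3 CpG) holds 2 CCAAT boxes, and Akr1c21 (chr13:4573825-4574124, plus strand, 37.3% GC, 1 CpG) holds 1 E-box. Over all RefSeq promoters in the table, 35.7% hold a GC box, 8.86% the ETS core, 37.4% a CCAAT box and 7.15% the E-box, and the medians are 52.7% GC and 7 CpG. Gaa has 55.3% GC and 21 CpG. Among the genes picked over all regions that have a listed promoter, GC content at the first listed start site largely followed direction. Those with higher values at P14 had 54.0% GC or more. Those with lower values had 37.3% to 47.3% GC, except Asb7 with 63.7% GC and 17 CpG. For Acaca, Cntn4 and Kif26a the listed site lies inside the gene, at 84195438, 106118765 and 112146208 against gene starts of 84129635, 105677632 and 112143974. Whether these sites fall in the counted regions is not known. The part of base composition in these differences was not tested.
Slc35c2: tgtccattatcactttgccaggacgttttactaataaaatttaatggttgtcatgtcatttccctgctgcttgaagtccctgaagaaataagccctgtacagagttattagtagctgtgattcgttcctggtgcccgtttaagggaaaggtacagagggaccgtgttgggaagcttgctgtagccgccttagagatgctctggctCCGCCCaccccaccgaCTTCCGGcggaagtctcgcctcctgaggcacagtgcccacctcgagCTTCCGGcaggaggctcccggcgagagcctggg
Kif26a: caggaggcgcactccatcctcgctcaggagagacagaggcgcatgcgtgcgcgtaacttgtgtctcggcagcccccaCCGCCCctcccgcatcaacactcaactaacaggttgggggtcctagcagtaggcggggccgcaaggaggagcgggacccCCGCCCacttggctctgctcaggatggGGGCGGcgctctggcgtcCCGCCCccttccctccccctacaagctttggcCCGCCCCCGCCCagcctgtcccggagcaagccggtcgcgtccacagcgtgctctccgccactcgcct
Hpx: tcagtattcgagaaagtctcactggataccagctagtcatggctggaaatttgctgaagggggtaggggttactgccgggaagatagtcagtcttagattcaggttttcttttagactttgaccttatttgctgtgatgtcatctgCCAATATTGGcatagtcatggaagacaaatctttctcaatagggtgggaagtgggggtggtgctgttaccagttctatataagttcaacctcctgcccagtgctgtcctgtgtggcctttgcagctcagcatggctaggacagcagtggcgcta
Akr1c21: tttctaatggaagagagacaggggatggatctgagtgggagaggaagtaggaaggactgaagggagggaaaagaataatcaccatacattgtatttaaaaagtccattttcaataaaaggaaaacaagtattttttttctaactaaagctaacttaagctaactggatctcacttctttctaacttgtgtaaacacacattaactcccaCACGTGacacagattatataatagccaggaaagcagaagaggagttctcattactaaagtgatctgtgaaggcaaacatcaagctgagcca

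The named peaks with lower values at P14 did not pass the test with all libraries. PK56790, inside the olfactory receptor gene Olfr607 on chromosome 7 (103460169 to 103461341), held 29, 45 and 71 reads at P1 and 4, 4 and 3 at P14, a log2 difference of -2.23 ± 0.53 (edgeR adjusted p = 0.0795). PK9206, inside Dock2 (chromosome 11, 34681513 to 34683579), held 119, 82 and 139 reads at P1 and 27, 9 and 12 at P14, a log2 difference of -1.38 ± 0.31 (edgeR adjusted p = 0.0838). Dock2 encodes a guanine exchange factor of leukocytes. In both peaks the ages did not overlap, and both were called without P1 replicate 1 and without P56 replicate 2. PK2214 inside Sp100, PK6161, PK62466 inside Lingo1, and PK53272, PK64269 and PK6534 had log2 differences of -1.32 to -1.79. PK68264 on the X chromosome differed by 1.35 (edgeR adjusted p = 0.082) and PK44810 inside Rnf220 by 1.48 (edgeR adjusted p = 0.2004).

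Leaving out P1 replicate 1 changed the peak result most. Without it, 21 peaks rose and 20 fell in edgeR's test (41 in all, both original calls included), and 6 of the 21 rises but none of the falls had a depth slope under 0.5. Of these peaks 7 are described here, chosen after their values were seen. PK36493 inside Jph2, whose product junctophilin anchors the calcium release units of cardiomyocytes, stood at 32.1, 49.9 and 74.5 CPM at P1 and 19.3, 24.9 and 18.9 CPM at P14. It fell by 1.58 on the log2 scale without that library (edgeR adjusted p = 0.0311) and differed by -1.32 with it (edgeR adjusted p = 0.441).

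Other peaks that fell without P1 replicate 1 were PK57061, 22.3 kb from Tead1, the DNA-binding partner of Yap (-1.53 without, -1.24 with), and PK16513, 20.2 kb from Ndufs6, a complex I subunit gene (-1.57 and -1.26). PK23080 at Srebf2, a regulator of cholesterol synthesis, changed by -1.46 without and -1.17 with it. In all 4 of these, P1 replicate 1 was the lowest P1 library and the closest to P14. Peaks that rose without it included PK19494 inside Sox7, an endothelial transcription factor gene (1.81 without, 1.22 with), PK10790 inside Hdac5, a histone deacetylase gene (1.44 and 1.15), and PK22978 inside Ncf4, a phagocyte oxidase gene (1.67 and 1.25). In these 3, P1 replicate 1 was the highest P1 library. The counts without other libraries were 0 without P1 replicate 2 or 3 or P14 replicate 2 or 3, 2 without P14 replicate 1, 5 and 10 without P56 replicates 1 and 2, and 1 without P56 replicate 3.

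By function, none of 621 tested genes from 30 lists was called (0.0%), the smallest edgeR adjusted p being 0.407. Of these 621 genes, 47 had an unadjusted p below 0.05 (7.57%), beside 4.92% and 3.67% of all regions with a higher and a lower value. The median log2 change of all TSS regions was 0.00, and list medians are read beside it. Of the 30 medians, 22 had the other sign under at least 1 alternative. The 8 that kept theirs were the fetal contractile, creatine, calcium and ion channel, muscle microRNA, smooth muscle, leukocyte, epicardial and glial lists.

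No contractile gene passed the test. Of 24 mature sarcomere genes 14 had a value above 0, with a median of 0.04 and a range from -0.81 to 0.40, and without P1 replicate 1 the median was -0.16. Of 20 fetal contractile and stress genes 17 had a value above 0, with a median of 0.28, or 0.13 without P1 replicate 1. Myh7, the slow myosin heavy chain that mouse ventricles use before birth, stood at 48.7, 71.3 and 104.5 CPM at P1 and 92.2, 154 and 146 CPM at P14. The ages overlapped, and the log2 difference was 0.77 ± 0.26 (edgeR adjusted p = 0.492). Myh6, its adult counterpart, stood at 44.3, 93.2 and 138 CPM at P1 and 71.1, 133 and 127 CPM at P14, a log2 difference of 0.23 (95% interval -0.37 to 0.82). The peak at the Myh6 promoter, PK19262, differed by -0.22 in the opposite direction (edgeR adjusted p = 0.962). At the TSS, P1 replicate 1 was the lowest library for both myosins.

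The troponin I pair, which switches from Tnni1 to Tnni3 after birth, differed by -0.02 and 0.13 at the TSS. The peak at the Tnni1 promoter (PK3552) had a lower mean at P14, 92.5 ± 16.6 CPM against 163 ± 34.9 CPM at P1, a log2 difference of -0.81 ± 0.27 (edgeR adjusted p = 0.558). Ankrd1, a stress-responsive gene of the sarcomere, stood at 13.5, 23.3 and 35.2 CPM at P1 and 12.2, 16.9 and 12.3 CPM at P14. Its log2 difference was -0.81 at the TSS and -1.51 at its promoter peak PK31880 (edgeR adjusted p = 0.591 and 0.491). Nppa and Nppb, the natriuretic peptide genes, differed by -0.09 and 0.33.

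No gene of energy metabolism passed the test. Medians were 0.06 for 28 oxidative phosphorylation and TCA cycle genes, 0.05 for 30 genes of fatty acid uptake and oxidation, 0.18 for 25 glycolytic genes and 0.35 for 11 genes of creatine and high energy phosphate, of which 10 were above 0. Without P1 replicate 1 they were -0.01, -0.11, -0.05 and 0.19. The 95% interval lay within 2-fold for 22 of 28, 27 of 30, 25 of 25 and 8 of 11 of these genes. Acadvl, the first dehydrogenase for very long fatty acyl chains, stood at 35.6, 37.7 and 57.2 CPM at P1 and 56.6, 67.5 and 71.7 CPM at P14, with overlap, and a log2 difference of 0.56 (edgeR adjusted p = 0.526). Ppard, a fatty acid sensing nuclear receptor gene, differed by 0.54 without overlap and Ckmt1, a mitochondrial creatine kinase gene, by 0.55 without overlap. Ppargc1a, Ppara and Esrra, regulators of mitochondrial and fatty acid genes, differed by -0.30, -0.14 and -0.08.

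Ion channel and calcium genes had a median of 0.16, with 24 of 37 above 0. Cacna1g, a T-type calcium channel gene, stood at 117, 149 and 116 CPM at P1 and 178, 186 and 159.8 CPM at P14, all P14 libraries higher (log2 difference 0.46, edgeR adjusted p = 0.492). Trdn, encoding triadin of the calcium release complex, differed by 1.01 and Slc8a1, the sodium-calcium exchanger, by -1.07, both without overlap and with edgeR adjusted p of 0.526 and 0.531. Slc8a1 rested on low levels, 6.15 to 7.78 CPM at P14.

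Among hormone receptor genes, Rxra and Rara differed by 0.52 and 0.51 without overlap (edgeR adjusted p = 0.448 and 0.487), and Rxrb by 0.42. Rxra, a partner of many nuclear receptors, stood at 108, 119.9 and 102 CPM at P1 and 158, 169 and 148 CPM at P14. The thyroid hormone receptor genes Thra and Thrb, of interest since thyroid hormone climbs over these weeks, differed by -0.02 and 0.32. The receptor list as a whole had a median of 0.06 (26 genes), or -0.07 without P1 replicate 1. Of 19 clock genes 6 had a value above 0, with a median of -0.09, or -0.24 without P1 replicate 1. Bhlhe40, a clock repressor gene, stood at 26.1, 44.5 and 40.9 CPM at P1 and 20.0, 25.3 and 20.5 CPM at P14, a log2 difference of -0.76 without overlap (edgeR adjusted p = 0.558). Collection times are not labelled.

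Cardiac transcription factor genes had a median of -0.14, with 11 of 25 above 0, or -0.21 without P1 replicate 1. Gata5, a GATA factor of the endocardium and developing heart, had the highest value: 19.1, 22.6 and 18.9 CPM at P1 and 35.5, 40.1 and 45.1 CPM at P14. All P14 libraries were higher, the log2 difference was 0.98 ± 0.26 (edgeR adjusted p = 0.409), and P56 stood at 22.1 ± 1.1 CPM. Meis1, a factor that holds back cardiomyocyte division after birth, stood at 34.8, 52.8 and 56.7 CPM at P1 and 19.99, 42.2 and 36.9 CPM at P14, a log2 difference of -0.61 (95% interval -1.30 to 0.09). Hey2 and Mef2a differed by -0.71 and -0.51, with overlap. At Hey2 the promoter peak PK5765 differed by -0.85 (edgeR adjusted p = 0.742).

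**Figure D4:**
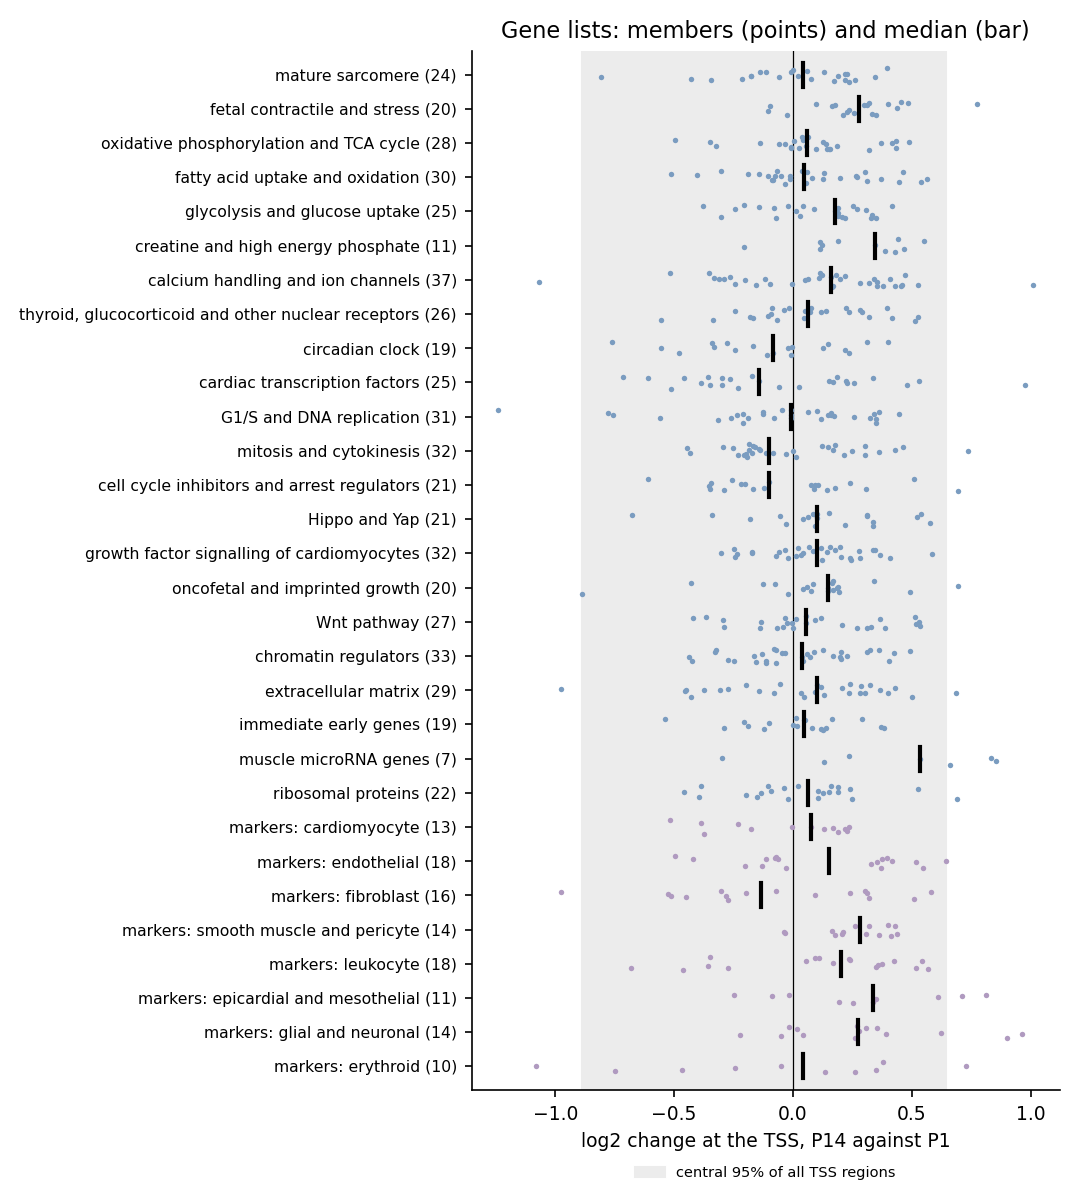
Log2 change from P1 to P14 at the TSS of each tested member (points, vertical jitter only) and the median (bar) of 30 gene lists, with the number of tested members in brackets and marker lists in purple. The grey band spans the central 95% of all TSS regions, -0.89 to 0.65; list medians lie between -0.14 and 0.54.

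No cell cycle gene passed the test. Of 32 genes of mitosis and cytokinesis 14 had a value above 0, with a median of -0.10, and 30 of 32 had an interval that excludes a 2-fold fall. Of 31 genes of the G1/S transition and DNA replication 14 were above 0, with a median of -0.01, and 26 of 31 excluded a 2-fold fall, beside 25667 of all 33747 TSS regions. Mki67, the proliferation marker, stood at 25.6, 36.3 and 39.9 CPM at P1 and 29.99, 25.3 and 32.8 CPM at P14, a log2 difference of -0.19 (95% interval -0.78 to 0.39). Ccnb1, the mitotic cyclin B1, stood at 42.2, 36.3 and 41.5 CPM at P1 and 41.1, 46.4 and 32.8 CPM at P14, a log2 difference of 0.00 (95% interval -0.51 to 0.51). Cdk1 and Aurkb differed by 0.18 and -0.14.

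The largest values in these lists went both ways. Mcm2, a subunit of the replicative helicase, stood at 60.4, 60.3 and 59.3 CPM at P1 and 81.1, 94.9 and 69.7 CPM at P14, a log2 difference of 0.45 (edgeR adjusted p = 0.556). Pola1, the catalytic subunit of DNA polymerase alpha, stood at 10.4, 19.2 and 17.3 CPM at P1 and 8.89, 2.11 and 6.15 CPM at P14, a log2 difference of -1.24 (edgeR adjusted p = 0.495). Aurka, Cdc25b and Cdca8 lay higher at P14 without overlap, by 0.46, 0.43 and 0.74. Among 21 inhibitors and arrest regulators the median was -0.10, or -0.24 without P1 replicate 1. Cdkn1a (p21) differed by 0.31 without overlap and Cdkn1c (p57) by 0.70 with overlap.

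Growth signalling genes were near the median of all regions: 0.10 for 21 Hippo and Yap genes, 0.10 for 32 growth factor genes and 0.05 for 27 Wnt genes. Erbb2, the neuregulin co-receptor whose loss of signal accompanies the end of cardiomyocyte division, stood at 43.0, 50.7 and 46.7 CPM at P1 and 75.5, 69.6 and 63.5 CPM at P14. All P14 libraries were higher, and the log2 difference was 0.59 ± 0.21 (edgeR adjusted p = 0.498). Yap1, the growth co-activator held back by the Hippo kinases, stood at 19.1, 21.2 and 22.6 CPM at P1 and 9.996, 12.7 and 18.4 CPM at P14, a log2 difference of -0.68 (edgeR adjusted p = 0.570). The peak at its promoter, PK61229, differed by 0.25 in the opposite direction. Tead3 and Amotl1, a Yap partner and a Yap-binding scaffold, differed by 0.52 and 0.58 without overlap.

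**Figure D5:**
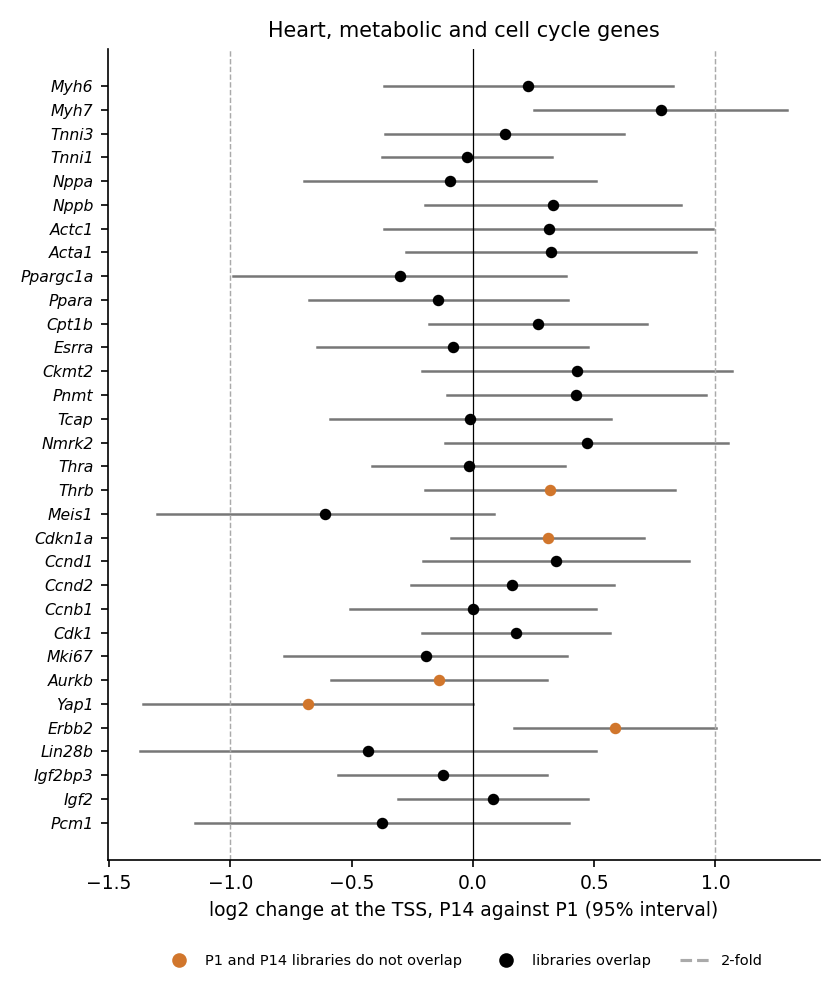
Log2 change from P1 to P14 at the TSS (points) with 95% intervals (lines) for 32 heart, metabolic and cell cycle genes; dashed lines mark 2-fold changes. No gene passed the test, and 24 of the 32 intervals lie within 2-fold. Orange points mark the 5 genes whose P1 and P14 libraries do not overlap. Over all TSS regions, P14 lay wholly above P1 in 9.02% and wholly below in 7.87%.

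List medians were also 0.04 for 33 chromatin regulators, 0.10 for 29 extracellular matrix genes, 0.05 for 19 immediate early genes, 0.15 for 20 oncofetal and imprinted genes and 0.06 for 22 ribosomal protein genes. Without P1 replicate 1 those of the immediate early and ribosomal protein genes were -0.18 and -0.16. Col6a1, a collagen VI gene, stood at 50.4, 48.0 and 38.3 CPM at P1 and 69.97, 73.8 and 77.9 CPM at P14, a log2 difference of 0.69 without overlap (edgeR adjusted p = 0.478). Fn1, encoding fibronectin, stood at 107, 82.9 and 108 CPM at P1 and 74.4, 67.5 and 79.9 CPM at P14, a log2 difference of -0.43 without overlap.

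Muscle microRNA genes had the highest list median, 0.54 over the 7 tested of 20 listed genes, with 6 of 7 above 0. Without P1 replicate 1 it was 0.37. Mir208a, which lies inside Myh6, stood at 26.5, 39.1 and 48.8 CPM at P1 and 58.9, 99.1 and 51.2 CPM at P14. The ages did not overlap, and the log2 difference was 0.85 ± 0.29 (edgeR adjusted p = 0.495). Mir208b, inside Myh7, differed by 0.83 ± 0.41 (edgeR adjusted p = 0.581) and Mir499, inside Myh7b, by 0.54 ± 0.29 (edgeR adjusted p = 0.618). Reads at these loci can belong to the host gene as well as the microRNA gene. The mature strands of these 3 myosin-hosted microRNAs (RefSeq, GRCm38.p6) are shown because miR-208a-3p and miR-208b-3p share their seed, bases 2 to 8 in capitals, and miR-499-5p has a similar one.
mmu-miR-208a-3p: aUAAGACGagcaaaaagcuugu
mmu-miR-208b-3p: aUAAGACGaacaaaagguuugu
mmu-miR-499-5p: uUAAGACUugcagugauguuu

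Markers of other cell types were measured the same way. Summed levels were 733 to 863 CPM at P1 and 860.5 to 955 CPM at P14 for 18 endothelial genes, 485 to 564 and 468 to 541 CPM for 16 fibroblast genes, and 485 to 534 and 569 to 649 CPM for 14 smooth muscle and pericyte genes. They were 439 to 553 and 559 to 603 CPM for 18 leukocyte genes, 297 to 321 and 363 to 401 CPM for 11 epicardial and mesothelial genes, 536 to 664 and 727 to 773 CPM for 14 glial and neuronal genes, and 234 to 302 and 297 to 336 CPM for 10 erythroid genes. The ages did not overlap for the smooth muscle, leukocyte, epicardial and glial sums, which were higher at P14. Their list medians were 0.28, 0.20, 0.34 and 0.28 with no gene called. Higher sums at P14 without overlap were not particular to marker lists. They were 1120 to 1280 CPM at P1 and 1350 to 1420 CPM at P14 for Hippo and Yap genes. For growth factor genes they were 1970 to 2140 and 2220 to 2290 CPM, and for extracellular matrix genes 1490 to 1520 and 1550 to 1630 CPM. In mean log2 CPM over the leukocyte genes the ages did overlap, at 4.54 to 4.83 for P1 and 4.69 to 4.81 for P14. Of the leukocyte genes, 1 lay wholly above and 2 wholly below P1 at P14. The part of the marked cell types in the results above was not tested. Epicardial Upk3b and Msln differed by 0.81 and 0.71, neuronal Tubb3 by 0.96 and erythroid Slc4a1 by 0.73, each without overlap.

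Side by side with the interval from P14 to P56, which shares the P14 libraries, list medians at the TSS were 0.04 before and 0.74 after P14 for the mature sarcomere, 0.06 and 0.69 for oxidative phosphorylation and TCA cycle genes, 0.05 and 0.43 for fatty acid genes and 0.18 and 0.56 for glycolysis. For mitosis they were -0.10 and 0.10. Without P56 replicate 2, the highest library in cardiomyocyte markers, the medians after P14 were 0.29, 0.37, 0.14, 0.23 and 0.05 in the same order. That alternative was added after the data were seen. Tcap, the titin cap gene, stood at 41.9 ± 11 CPM at P1, 42.1 ± 14.7 at P14 and 104.1 ± 38.0 at P56 (SD, n = 3). Pnmt, which makes adrenaline, stood at 34.8 ± 5.45, 47.5 ± 17.5 and 131 ± 42.3 CPM. From P14 to P56 Pnmt rose by 1.50 on the log2 scale (edgeR adjusted p = 0.02585), and Tcap differed by 1.35 (edgeR adjusted p = 0.0767). Without P56 replicate 2 these were 1.2 for Pnmt and 1.03 for Tcap. The difference between both intervals was tested for each region as the change before P14 minus the change after it. At the TSS 3 regions were called (0.00889%), Gm10800, Gm10801 and Gm26917 again, and 2043 had an unadjusted p below 0.05 (6.05%). Among peaks 2 were called (0.00773%), PK34880 and PK68264, and 2255 had an unadjusted p below 0.05 (8.71%). In all 5 the P14 mean was above both other ages, and all 5 had a depth slope under 0.5. Gm10800 and PK34880 likely share most of their reads, so the 5 are not all separate. No listed gene was called for the difference between both intervals, Tcap and Pnmt included (edgeR adjusted p = 0.818 for both).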

How the data were processed

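ATAC-seq read counts of cardiomyocyte nuclei were taken as the authors deposited them: 1 table of counts at transcription start sites and 1 at peaks, with 9 columns each. The submitters' processing notes name the build GRCm38 and, without roles, featureCounts 1.4.2, MACS 1.4.0, BWA 0.7.10, bedtools 2.26, bcl2fastq 2.17.1.14 and SAMtools 1.3.1. The start site window, and whether peaks were called per library or pooled, are not given in the sources used here. Every deposited region had a mean of at least 10 counts, so regions open at 1 age only may be missing. Counts are raw, and transposase shifting or duplicate removal is not stated.

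Each table was fitted in R 4.3.3 with edgeR 4.0.16 (TMM scaling, filterByExpr, quasi-likelihood test, 1 coefficient per age over all 9 libraries), with Benjamini-Hochberg adjustment over all regions of a table and a threshold of 0.05. The fit was tested on simulated data. CPM values use TMM-scaled library sizes; SD is over 3 libraries and SE and 95% intervals come from the fit. Alternatives used DESeq2 1.42.0 and limma 3.58.1, other scalings, filters and library subsets. Groups came from the age labels. Symbols matched RefSeq for 26093 start site regions (77.3%), and promoters are from RefSeq GRCm38.p6.

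Named genes were up to 10 per direction that passed the test, averaged 20 counts or more over the 6 libraries and did not overlap between the ages, filled with the smallest p; predicted and receptor-cluster genes were passed over. Added to these were a panel of 33 genes and up to 3 members of each list with the smallest p; peaks were 8 per direction. The members and lists were chosen with earlier results of these data known.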

Additional observations from a re-analysis of the deposited data

How the results depend on the processing

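Counts of called regions were small and moved with most settings; where no value shows why, the cause was not tested. For TSS regions (4 as reported), a log2 change beyond 1 left 2, loess offsets 1, a mean count of at least 20 left 2, the 6 P1 and P14 libraries alone gave 7, thinning to the shallowest library 0, the total count as covariate (added after seeing the data) 0, DESeq2's Wald test 1 and limma-voom 1. Leaving out 1 library gave 0 to 9. For peaks (2), the counts were 0 at an adjusted p under 0.01, with library size alone, with the other table's factors, with loess offsets, with a mean count of at least 20, after thinning and with the covariate, and 7 with the 6 libraries alone. Leaving out 1 library gave 0 to 41. For the difference between both intervals at the TSS (3), they were 1 at an adjusted p under 0.01, with DESeq2 size factors, with loess offsets and with a mean count of at least 20, and 0 after thinning, with the covariate, with DESeq2's Wald test and with limma-voom. Leaving out 1 library gave 0 to 4. No label pairs samples with the same number, and whether they pair was not settled. Correlations of their deviations between P1 and P14 were small, 0.0972, 0.0724 and 0.0188 at the TSS and 0.146, 0.0463 and 0.041 at peaks. With the replicate block 12 TSS regions, 18 peaks and 5 TSS regions for the difference between intervals were called. Called with the block and not as reported were, among named genes, Cyb561, Slc35c2, Adam11, Kif26a, Gm42418 and Myh7. Each library correlated best with its own number, except P1 replicate 3 at the TSS, and P1 replicate 3 and P14 replicate 2 at peaks, a hint from the data and not from the design.

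With the covariate the log2 change turned to -0.0834 for Gm10800, -0.252 for Gm10801, -0.181 for Gm26917 and -0.147 for PK34880. Among named features that did not pass, 38 of 134 TSS genes and 1 of 14 peaks changed sign under some setting. The other table's scaling factors moved the median of all regions to -0.14 at the TSS, with 11842 of 33747 regions above 0 against 16876 as reported, and to 0.13 at peaks. Library size alone moved the TSS median to -0.07. The depth of P14, at 481217 to 893032 TSS counts, limits the precision of every value.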

Other observations

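Gene families outside the lists, chosen after their values were seen, differed in their medians at the TSS, and none of their genes was called in edgeR's test. Olfactory receptor genes, which nasal sensory neurons use, had a median log2 change of -0.28 with 221 of 937 above 0 (23.6%), and vomeronasal receptor genes one of -0.38 with 27 of 210 above 0 (12.9%), beside 16876 of all 33747 regions. Over the scalings and the covariate these medians ran from -0.41 to -0.16 and from -0.51 to -0.13. MicroRNA genes had a median of 0.15 with 369 of 570 above 0 (64.7%), between 0.01 and 0.16 over the same settings. Hox genes, which set position along the body axis, had a median of 0.35 with 26 of 32 above 0, which turned to -0.18 with the total count as covariate.

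These families differ in level, and so did the median by level: in 5 equal groups of TSS regions from the lowest to the highest mean CPM it was -0.31, -0.10, 0.05, 0.12 and 0.12. The part of level in the family medians was not tested.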
